A study of Mus musculus with 8 samples.

Results

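Complex III, the cytochrome bc1 complex, is the middle proton pump of the mitochondrial respiratory chain. It takes electrons from reduced coenzyme Q and hands them to cytochrome c through cytochrome b, the Rieske iron-sulfur protein and cytochrome c1. Only cytochrome b is encoded in the mitochondrial genome, and all other subunits come from nuclear genes. The retina is known for a high rate of respiration, much of it in the photoreceptor inner segments. Described here are 9 nuclear subunit genes (Uqcrh, Uqcrb, Uqcrq, Uqcrc1, Uqcrc2, Uqcrfs1, Uqcr10, Uqcr11 and Cyc1), and all 9 were among the 19938 genes compared. They were listed as subunits of the complex, and Uqcrh and Uqcrb were chosen by their log2 fold changes with MPTP, which had been seen above 0 at both times in these arrays. The MPTP values of those 2 genes are therefore a description with no test. Where a gene had several probe sets, the one with the highest mean signal was taken. The other 7 subunits were not picked for their values.

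The study used male C57BL/6 mice, 6 weeks old per the labels' growth protocol, and took retinas at 1 week (7 days) or 4 weeks (28 days) of saline or MPTP injection. MPTP harms dopaminergic neurons, which take up its product MPP+. This ion blocks complex I, which feeds electrons by way of coenzyme Q to complex III. The 4 groups are saline at 1 week, MPTP at 1 week, saline at 4 weeks and MPTP at 4 weeks, with 6 mice and 2 arrays each, and the RNA for 1 array came from 4 retinas together. The labels do not say whether both pools of a group were made from different mice, so p-values measure only the spread between these arrays, and the dose of MPTP is not given in the sources used here. Values are log2 RMA signals, 1 per probe set, so a difference of 1 is a doubling, and signals of different genes are not set against each other because probes differ in brightness.

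The tissue label was checked against markers. The 5 rod genes measured all stood at or above percentile 95.7 of the mean signal on the arrays. The arrays saline 1 week 2 and MPTP 1 week 1 stood apart on the first principal component (scores 15.7 and 19.1, the others between -9.39 and -0.39), so 1 array of each treatment is concerned. The lens and pigment epithelium lists had their highest means, 8.28 and 7.94, in MPTP 1 week array 2. The other arrays reached at most 7.89 and 7.67. Crybb2, Bfsp1, Bfsp2 and Mip of the lens list were brightest in other arrays, as were Best1 and Dct of the pigment epithelium list. The number of arrays limits the precision of every value below. In whole retina, a change in RNA per cell and a change in the number of cells cannot be told apart.

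Uqcrh and Uqcrb were the subunits with the largest MPTP values at 1 week. Uqcrh encodes the acidic hinge protein, which helps cytochrome c1 meet cytochrome c. On saline arrays 1 and 2 its signal was 10.74 and 10.52 at 1 week and 10.57 and 10.41 at 4 weeks, and on MPTP arrays 1 and 2 it was 10.97 and 11.01 at 1 week and 10.84 and 10.78 at 4 weeks. All 4 MPTP arrays lay above all 4 saline arrays, by a small margin between the lowest MPTP array at 4 weeks and the highest saline array at 1 week. The difference was 0.36 ± 0.10 (SE of the limma fit, n = 2) at 1 week, or 1.28-fold, and 0.32 ± 0.10 at 4 weeks, or 1.25-fold. Over both times it was 0.34 ± 0.07 (n = 4), or 1.26-fold.

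The value of Uqcrh at 1 week leaned on the saline arrays, since it was 0.47 without saline array 1 and 0.25 without saline array 2. Its MPTP arrays at 1 week read 10.97 and 11.01. Lens markers differed between these arrays (7.17 in array 1 and 8.28 in array 2), and array 1 stood apart on the principal component. Without the 2 arrays that stood apart, Uqcrh was 0.27 higher at 1 week. The part of these markers and arrays in the result was not tested. The gene table also holds pseudogenes of Uqcrh, and whether their transcripts add to this probe set was not tested.

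Uqcrb encodes a small matrix-side subunit that takes part in binding coenzyme Q and in assembly. Its signal was 9.97 and 9.92 on the saline arrays and 10.31 and 10.27 on the MPTP arrays at 1 week, and 9.84 and 9.74 against 10.07 and 9.89 at 4 weeks. Within each time the groups did not overlap, but over both times they did, because MPTP 4 weeks array 2 lay below the saline arrays of 1 week. The difference was 0.35 ± 0.09 at 1 week (1.27-fold), 0.19 ± 0.09 at 4 weeks (1.14-fold) and 0.27 ± 0.07 over both times (1.20-fold). The 4-week value was 0.10 without MPTP array 1 and 0.27 without MPTP array 2.

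Marker lists of other retinal cells were also compared between the treatments. At 1 week the rod list had a mean signal of 11.33 and 11.40 in saline and 11.44 and 11.47 in MPTP, and was thus higher without overlap (by 0.09). Of its genes, Rom1 and Nrl were higher without overlap, while Gnat1, Pde6b and Sag overlapped. The list of Mueller glia, the supporting cells that span the retina, read 9.23 and 9.44 in saline against 9.12 and 9.20 in MPTP, and was lower without overlap (-0.18). Of its genes, Rlbp1 and Dkk3 were lower without overlap, while Glul, Slc1a3 and Apoe overlapped. At 4 weeks the rod and Mueller glia lists overlapped (0.03 and -0.06). Of their genes, Rom1 and Nrl were again higher without overlap, and Rlbp1 and Glul were lower without overlap, while the others overlapped. In Rom1 and Nrl all 4 MPTP arrays lay above all 4 saline arrays, and in Rlbp1 all lay below. Over both times 1.01% of all genes had MPTP entirely above saline. Without overlap at 4 weeks were the bipolar (-0.07) and amacrine lists (-0.06) and the 1 blood gene measured (-0.13), lower with MPTP, and the ganglion cell (0.03) and microglia lists (0.08), higher with MPTP. Of all genes, 12.5% at 1 week and 17.4% at 4 weeks were higher with MPTP without overlap. Shares for lower genes and for lists are not given here, so these separations are descriptions. The part of these cell types in the values of Uqcrh, Uqcrb and the other subunits was not tested.

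**Figure D1:**
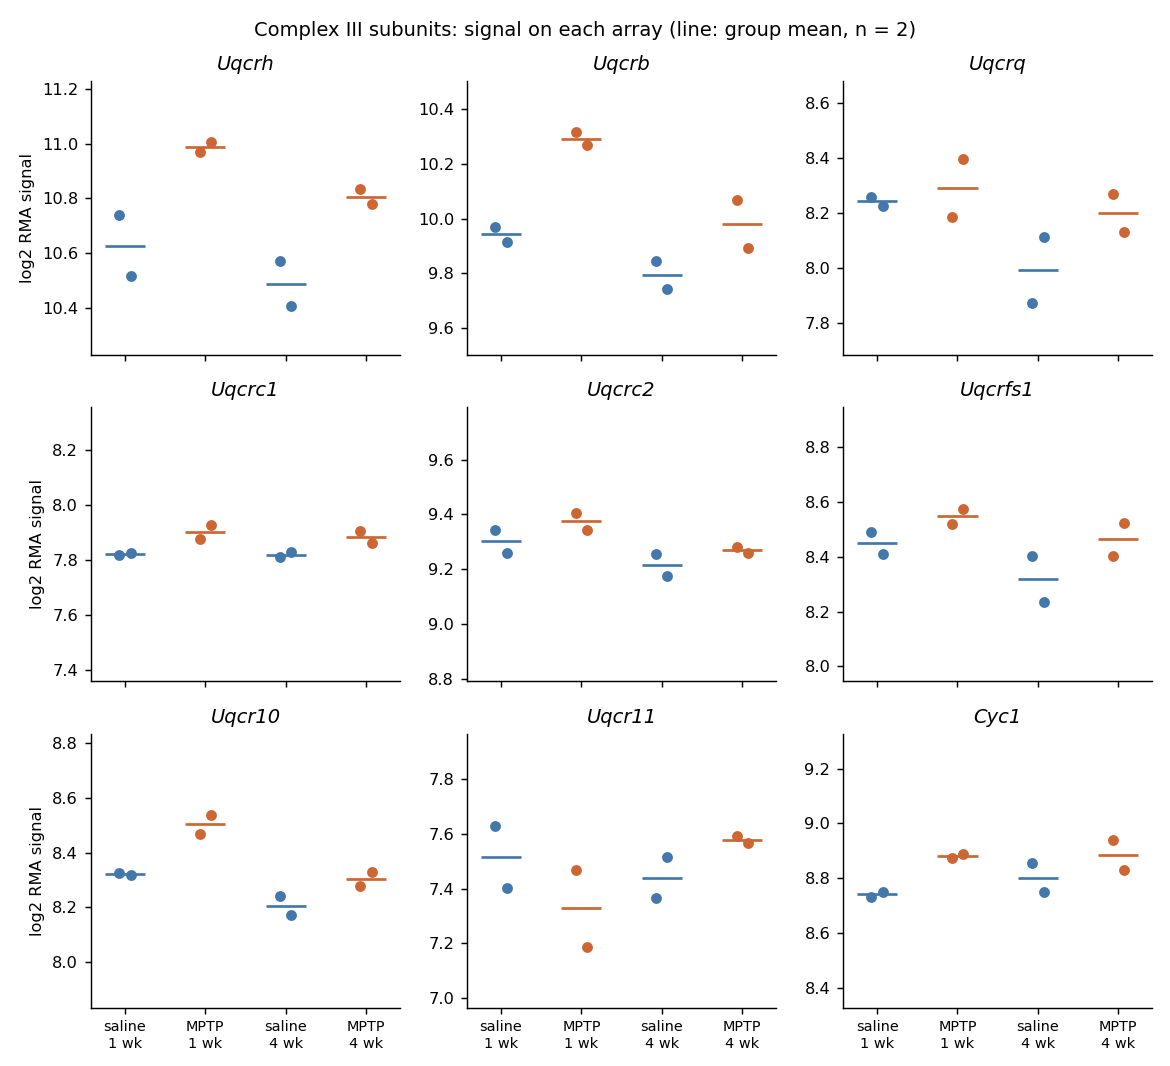
Log2 RMA signal (vertical axis, each panel spanning 1 log2 unit) of the 9 complex III subunits on each array, in saline (blue) and MPTP (orange) at 1 and 4 weeks; points are arrays, left array 1 and right array 2, and lines are group means of 2 arrays. In Uqcrh the MPTP arrays lie between 10.78 and 11.01 and the saline arrays between 10.41 and 10.74, whereas Uqcr11 has its lowest array, 7.19, in MPTP at 1 week.

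Uqcrb was read by 3 probe sets that list the same transcript, and their values were alike. Over the 8 arrays they correlated with each other at r = 0.985 to 0.997. Their differences at 1 week were 0.36 (probe set 10360026), 0.35 (10410259, the one used) and 0.38 (10412711), and at 4 weeks 0.19, 0.19 and 0.22. The probe sets share the same RNA on the same arrays and are not replicates.

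The 2 probe sets of Uqcr11, a small membrane subunit of the complex, did not move together (r = -0.22 over the 8 arrays). The brighter one, 10359826, read 7.63 and 7.40 in saline and 7.47 and 7.19 in MPTP at 1 week, and 7.36 and 7.51 against 7.59 and 7.56 at 4 weeks. Its groups overlapped at 1 week and not at 4 weeks. The other, 10370833, read 7.15 and 7.20 against 7.10 and 7.15, and then 6.98 and 7.00 against 7.09 and 6.98. At 1 week the differences were -0.19 ± 0.12 and -0.05 ± 0.09, and at 4 weeks 0.14 ± 0.12 and 0.04 ± 0.09, with each pair given in the order of the probe sets. Whether any probe set of Uqcrb also reads pseudogene transcripts was not tested. Which probe set measures Uqcr11 better was not tested, so the values of this gene are uncertain.

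**Figure D2:**
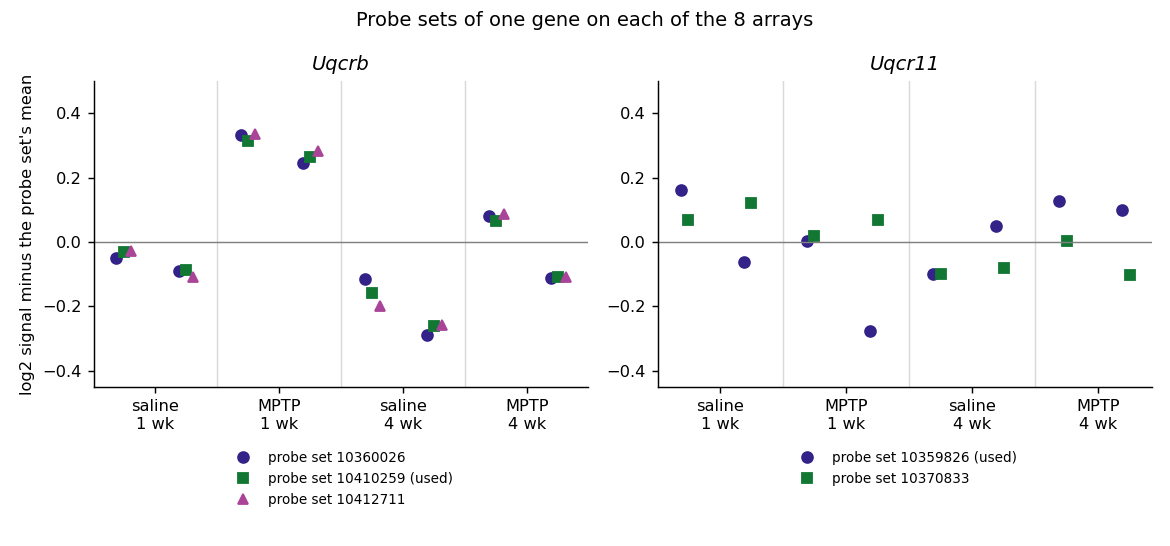
Log2 signal of each probe set minus its own mean over the 8 arrays (vertical axis) for Uqcrb (3 probe sets, left) and Uqcr11 (2 probe sets, right), with arrays ordered by group and vertical lines between groups. The 3 Uqcrb probe sets follow each other closely (r of at least 0.985), whereas the 2 of Uqcr11 do not (r = -0.22).

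Among the 7 subunits that were not picked for their values, MPTP retinas had slightly higher signal at both times for all but Uqcr11, which stood below saline at 1 week. At 1 week 6 of 7 had a fold change above 0, against 46.9% of all genes, and 4 of 7 had MPTP arrays entirely above the saline arrays, against 12.5% of all genes. At 4 weeks 7 of 7 were above 0, against 51.8% of all genes, and 5 of 7 did not overlap, against 17.4%. The median difference of the 7 was 0.08 at 1 week and 0.10 at 4 weeks, while the median of all genes was -0.0081 and 0.0043. None of the 7 passed the limma test at an adjusted p under 0.05 at either time, as 0 of 19938 genes did (percent called 0). At an unadjusted p under 0.05 there were 842 genes (4.22%) at 1 week and 381 (1.91%) at 4 weeks, and none of the 7 was among them.

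The subunits are bright on these arrays, so the same medians were taken over the 6958 genes at least as bright as the dimmest subunit. Those were 0.02 at 1 week and -0.03 at 4 weeks, with 56.6% and 38.3% of the bright genes above 0. At 4 weeks the median of the bright genes was thus below 0 and that of the 7 subunits above it. No test of this difference was made.

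Of the catalytic subunits, Cyc1, the heme protein cytochrome c1, read 8.73 and 8.75 in saline and 8.87 and 8.89 in MPTP at 1 week. Its arrays of a group lay close together there, and the groups were apart. At 4 weeks it read 8.86 and 8.75 against 8.94 and 8.83, with overlap. The differences were 0.14 ± 0.09 (95% interval of the limma fit -0.06 to 0.34) and 0.08 ± 0.09 (-0.12 to 0.28). Uqcrfs1, the Rieske protein that moves electrons to cytochrome c1, read 8.49 and 8.41 in saline and 8.52 and 8.58 in MPTP at 1 week, then 8.40 and 8.24 against 8.40 and 8.52. The groups were apart at 1 week and overlapped slightly at 4 weeks. Its differences were 0.10 ± 0.10 (-0.12 to 0.31) and 0.14 ± 0.10 (-0.07 to 0.36).

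The core proteins Uqcrc1 and Uqcrc2 face the matrix and are related to the mitochondrial processing peptidase. Uqcrc1 had the tightest arrays, with saline at 7.82 and 7.83 at 1 week and 7.81 and 7.83 at 4 weeks, and MPTP at 7.88 and 7.93 and then 7.91 and 7.86. All 4 MPTP arrays lay above all 4 saline arrays, as in Uqcrh, but the differences were small, 0.08 ± 0.08 (-0.11 to 0.26) and 0.06 ± 0.08 (-0.12 to 0.25). In this comparison over both times 1.01% of all genes had MPTP entirely above saline, and Uqcrc1 was 1 of the 7 subunits to do so. Uqcrc2 read 9.34 and 9.26 against 9.41 and 9.34 at 1 week, and 9.26 and 9.18 against 9.28 and 9.26 at 4 weeks. Its differences of 0.07 ± 0.09 and 0.05 ± 0.09 were within the spread between arrays, and the 1-week value was -0.0016 without the 2 arrays that stood apart.

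Of the remaining small subunits, Uqcr10, which lies in the membrane beside cytochrome c1, read 8.32 and 8.32 in saline against 8.47 and 8.54 in MPTP at 1 week. At 4 weeks it read 8.24 and 8.17 against 8.28 and 8.33, so that the groups were apart at both times. Its differences were 0.18 ± 0.09 (-0.0086 to 0.37) and 0.10 ± 0.09 (-0.09 to 0.29). Uqcrq, a small subunit that contacts cytochrome b, read 8.26 and 8.22 against 8.18 and 8.40 at 1 week, with MPTP arrays on both sides of saline. At 4 weeks it read 7.87 and 8.11 in saline against 8.27 and 8.13 in MPTP, a difference of 0.21 ± 0.11 (-0.04 to 0.46), and at 1 week the difference was 0.05 ± 0.11. Without MPTP 1 week array 2 the 1-week value of Uqcrq was -0.06, and without array 1 it was 0.15.

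Single arrays moved several of these values. At 4 weeks Cyc1 stood at 0.03 without MPTP array 1 and 0.14 without MPTP array 2. Leaving out saline array 2 or saline array 1 of 4 weeks gave 0.06 or 0.23 for Uqcrfs1, 0.01 or 0.09 for Uqcrc2 and 0.33 or 0.09 for Uqcrq. The same step gave 0.06 or 0.13 for Uqcr10 and 0.21 or 0.06 for Uqcr11. Uqcrc1 stood at 0.04 to 0.09 at 4 weeks and 0.05 to 0.10 at 1 week over all arrays left out. At 1 week Uqcr11 stood at -0.33 without MPTP array 1 and -0.05 without MPTP array 2. Without saline array 2 of 1 week Uqcrfs1 stood at 0.06 and Uqcrc2 at 0.03.

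**Figure D3:**
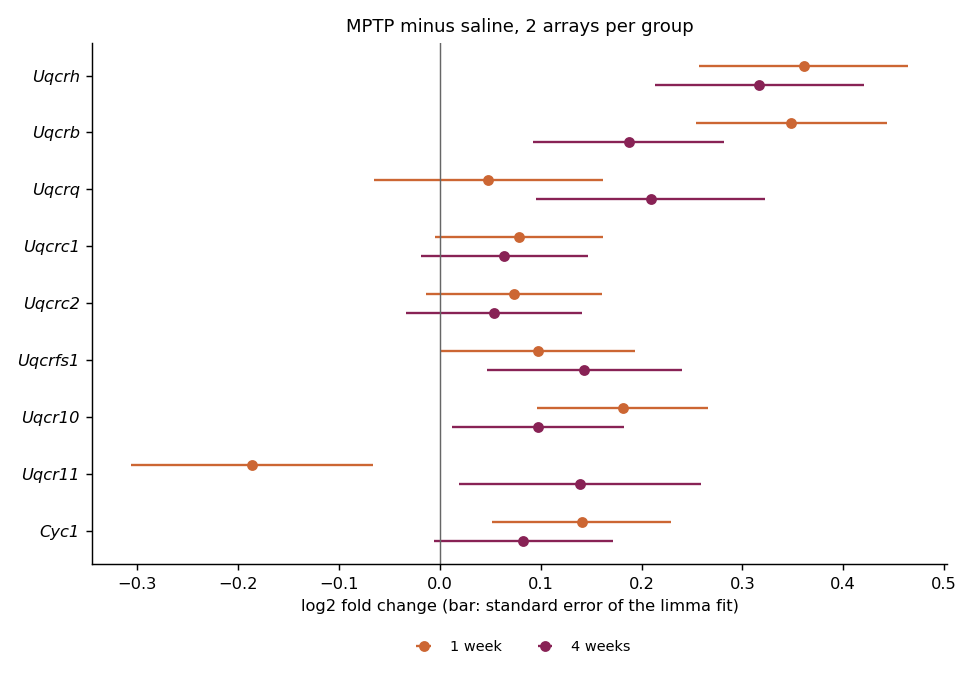
Log2 fold change of MPTP against saline (horizontal axis) for each subunit at 1 week (orange) and 4 weeks (purple); bars are the standard error of the limma fit, from 2 arrays per group. Uqcrh stands at 0.36 and 0.32, Uqcrb at 0.35 and 0.19, and Uqcr11 is the subunit with values on both sides of 0 (-0.19 and 0.14).

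Over both times, Uqcr10 stood at 0.14 ± 0.06 (n = 4), Uqcrq at 0.13 ± 0.08, Uqcrfs1 at 0.12 ± 0.06, Cyc1 at 0.11 ± 0.06, Uqcrc1 at 0.07 ± 0.05, Uqcrc2 at 0.06 ± 0.06 and Uqcr11 at -0.02 ± 0.09. The adjusted p of these 7 by limma lay between 0.973 and 0.995, and 0 of 19938 genes passed (percent called 0). At an unadjusted p under 0.05 there were 950 genes (4.76%), and 1 of the 7, Uqcr10 (unadjusted p = 0.032 by limma), was among them. The 95% intervals were wide against these values, for example 0.01 to 0.26 for Uqcr10 and -0.02 to 0.26 for Uqcrfs1. Summed up per array, the mean signal of the 7 was 8.37 and 8.31 in saline and 8.40 and 8.41 in MPTP at 1 week, and 8.26 and 8.26 against 8.38 and 8.36 at 4 weeks. MPTP arrays were above saline arrays of the same time, but those of 4 weeks did not all exceed the saline arrays of 1 week.

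Whether the MPTP effect differed between the times was read from the effect at 4 weeks minus that at 1 week. The 9 subunits had a median of -0.02, and the extremes were Uqcrb at -0.16 ± 0.13 and Uqcr11 at 0.33 ± 0.17. For this value of Uqcr11 the adjusted p was 0.9999 by limma (95% interval -0.05 to 0.70), and the other probe set gave 0.09. None of the 7 subunits passed, as 0 of 19938 genes did (percent called 0), and 391 genes (1.96%) had an unadjusted p under 0.05, with none of the 7 among them. An equal effect at both times is not shown by this.

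The change from 1 to 4 weeks was not itself used to choose the genes, but it rests on the arrays by which Uqcrh and Uqcrb were chosen. Their p-values for time, and the counts over all 9 subunits, are therefore not free of that choice. In saline retinas 8 of 9 subunits had lower signal at 4 weeks (49.4% of all genes were below 0), and 5 of 9 had groups that did not overlap (15.1% of all genes were lower without overlap). Without Uqcrh and Uqcrb these were 6 of 7 and 4 of 7. Of the bright genes 31.5% were above 0, against 1 of the 9 subunits. The median of the 9 was -0.11, against 0.0012 over all genes and -0.04 over the bright genes. Uqcrq stood lowest, at -0.25 ± 0.11, followed by Uqcrb at -0.15 ± 0.09, Uqcrh at -0.14 ± 0.10, Uqcrfs1 at -0.13 ± 0.10 and Uqcr10 at -0.11 ± 0.09, while Cyc1 stood at 0.06 ± 0.09. No subunit passed (adjusted p = 0.9997 for each by limma), and 0 of 19938 genes did (percent called 0), with 424 (2.13%) at an unadjusted p under 0.05 and no subunit among them. The median moved with the saline arrays of 1 week, since it was -0.04 without array 1 and -0.17 without array 2.

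In MPTP retinas 7 of 9 subunits had lower signal at 4 weeks, against 46.7% of all genes. Of the bright genes 20.8% were above 0, against 2 of the 9 subunits, so these shares were close. Without Uqcrh and Uqcrb, 5 of 7 were lower. Uqcrb stood at -0.31 ± 0.09 (unadjusted p = 0.0086, adjusted p = 0.507 by limma), Uqcr10 at -0.20 ± 0.09 (unadjusted p = 0.042, adjusted p = 0.507) and Uqcrh at -0.18 ± 0.10 (adjusted p = 0.550). In these genes both arrays of 4 weeks lay below both of 1 week, as in 4 of 9 subunits (2 of 7 without Uqcrh and Uqcrb) and 21.5% of all genes. The p-values of Uqcrb and Uqcrh are not free of the choice of these genes. The brighter probe set of Uqcr11 stood at 0.25 ± 0.12, but the other stood at -0.09. No gene of 19938 passed here (percent called 0), and 1952 (9.79%) had an unadjusted p under 0.05, with Uqcrb and Uqcr10 among them. The median of the 9 subunits, -0.09, was close to that of the bright genes, -0.08, whereas all genes had a median of 0.01. After quantile or cyclic loess normalization the subunits' median turned to 0.017 and 0.0019, while Uqcrb, Uqcr10 and Uqcrh stayed below 0 under every alternative tried. The groups of these genes did not overlap, so leaving out 1 array could not change the sign.

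**Figure D4:**
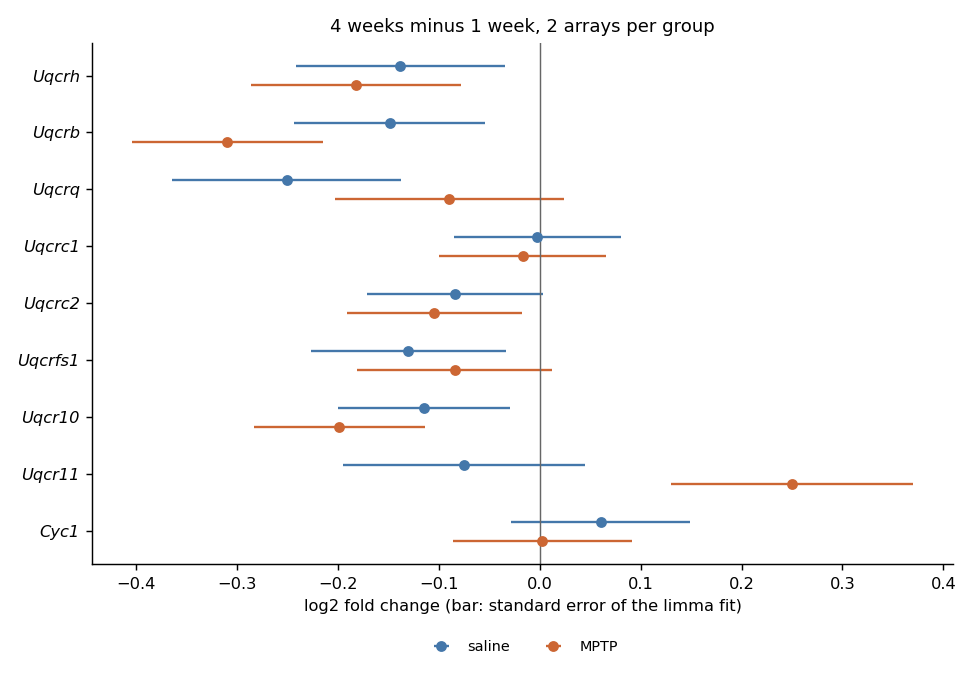
Log2 fold change of 4 weeks against 1 week (horizontal axis) for each subunit in saline (blue) and MPTP (orange) retinas; bars are the standard error of the limma fit, from 2 arrays per group. Most values lie below 0, with Uqcrb in MPTP at -0.31 and Uqcrq in saline at -0.25, and Uqcr11 in MPTP lies above 0 at 0.25.

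Apart from Uqcr11, whose values depended on the probe set, the subunits were positively correlated across the 8 arrays. The 28 pairs among the other 8 subunits all had a correlation above 0 (median r = 0.67, from 0.11 to 0.91), and the 8 pairs with the brighter probe set of Uqcr11 were all below 0 (median r = -0.27). With its other probe set 7 of 8 pairs were above 0 (median r = 0.42, from -0.15 with Cyc1 to 0.73 with Uqcrq). Once each group's mean was subtracted, the median over the 28 pairs was 0.12, with values from -0.57 to 0.87. The pairs were thus less alike within groups than across all arrays. These correlations describe 8 arrays that share groups and normalization, and they are not tests. Some pairs include Uqcrh or Uqcrb, which were chosen on differences between the groups. Pairs of other bright genes were not examined, so the correlations are not read as particular to the complex.

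The genes whose signal followed Uqcrh most closely over the 8 arrays, among the 9969 above the median of mean signal, were Pttg1, the securin (r = 0.985), Pfdn5, a subunit of the prefoldin chaperone (r = 0.969), Gsta4, a glutathione transferase (r = 0.960), Ube2e1, a ubiquitin-conjugating enzyme (r = 0.958), and Slc25a11, the mitochondrial oxoglutarate carrier (r = 0.956). For Uqcrb they were Ube2a, another ubiquitin-conjugating enzyme (r = 0.984), Psmg2, a proteasome assembly chaperone (r = 0.983), Ywhae (r = 0.976), B3galnt1 (r = 0.972) and Mmgt1 (r = 0.971). No other complex III subunit was in either group of 5. In this order Uqcrb was number 44 for Uqcrh, and Uqcrh number 103 for Uqcrb (r = 0.91 between them).

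Genes around complex III did not show 1 direction. Of 7 measured assembly factors and heme attachment genes, 1 was above 0 at 1 week and 2 at 4 weeks, with medians of -0.09 and -0.10. Uqcc2, which helps cytochrome b to be made and inserted, stood at -0.22 ± 0.08 at 1 week with 8.11 and 8.09 in saline against 7.88 and 7.88 in MPTP, and at 4 weeks its arrays read 7.87 and 7.89 against 7.95 and 7.89. Ttc19, which helps keep the Rieske protein in turnover, stood at -0.12 ± 0.09 and -0.10 ± 0.09, Uqcc1 at -0.09 ± 0.10 and -0.12 ± 0.10, and Lyrm7, the chaperone of the Rieske protein, at -0.14 ± 0.13 at 4 weeks. Thus the medians of the assembly genes and of the subunits, with or without Uqcrh and Uqcrb, had opposite signs at both times. No member of the list passed (smallest adjusted p = 0.9998 and 0.9999 by limma), and no test of the difference between the lists was made.

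Of the 13 measured genes for cytochrome c and coenzyme Q synthesis, 8 were above 0 and 5 below at each time, with medians of 0.05 and 0.01. Cycs, cytochrome c itself and the electron acceptor of complex III, read 10.03 and 10.15 in saline against 10.33 and 10.35 in MPTP at 1 week, and 10.08 and 9.94 against 10.24 and 10.15 at 4 weeks. All 4 MPTP arrays were above all 4 saline arrays, with 10.15 as the lowest MPTP and the highest saline value after rounding. The difference was 0.25 ± 0.09 at 1 week, 0.19 ± 0.09 at 4 weeks and 0.22 ± 0.06 over both times (n = 4, unadjusted p = 0.0051, adjusted p = 0.973 by limma). Coq7, a hydroxylase of coenzyme Q synthesis, stood at 0.12 ± 0.06 and Coq2, which joins ring and tail, at -0.10 ± 0.06 over both times.

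Of 9 supercomplex and import factors, 7 were above 0 at 1 week and 6 at 4 weeks (medians 0.07 and 0.04). Cox7a2l, listed as a supercomplex factor, read 9.26 and 9.27 in saline against 9.48 and 9.42 in MPTP at 1 week, and 9.27 and 9.10 against 9.30 and 9.34 at 4 weeks. It stood at 0.16 ± 0.06 over both times. Pmpca, the alpha subunit of the processing peptidase that trims imported proteins, went the other way, with 8.91 and 8.84 against 8.72 and 8.71 and then 8.77 and 8.79 against 8.43 and 8.69. It stood at -0.19 ± 0.07 over both times, and its partner Pmpcb at 0.09 ± 0.06 (adjusted p = 0.973 for Cox7a2l, Pmpca and Pmpcb by limma). Of 11 regulators of mitochondrial biogenesis, 8 were above 0 at 1 week and 6 at 4 weeks (medians 0.03 and 0.0013). At 1 week Tfam, which packages mitochondrial DNA and is dim here (percentile 35.7), stood at 0.34 ± 0.13, and the coactivator Ppargc1a at 0.26 ± 0.10 with 9.67 and 9.80 against 10.09 and 9.89. At 4 weeks Tfam read 6.47 and 6.33 in saline against 6.40 and 6.56 in MPTP, and Ppargc1a 9.75 and 9.79 against 9.77 and 9.90, so that both overlapped. Pprc1, a coactivator related to Ppargc1a, stood at -0.09 ± 0.06 over both times. No gene of these 2 lists passed at either time.

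**Figure D5:**
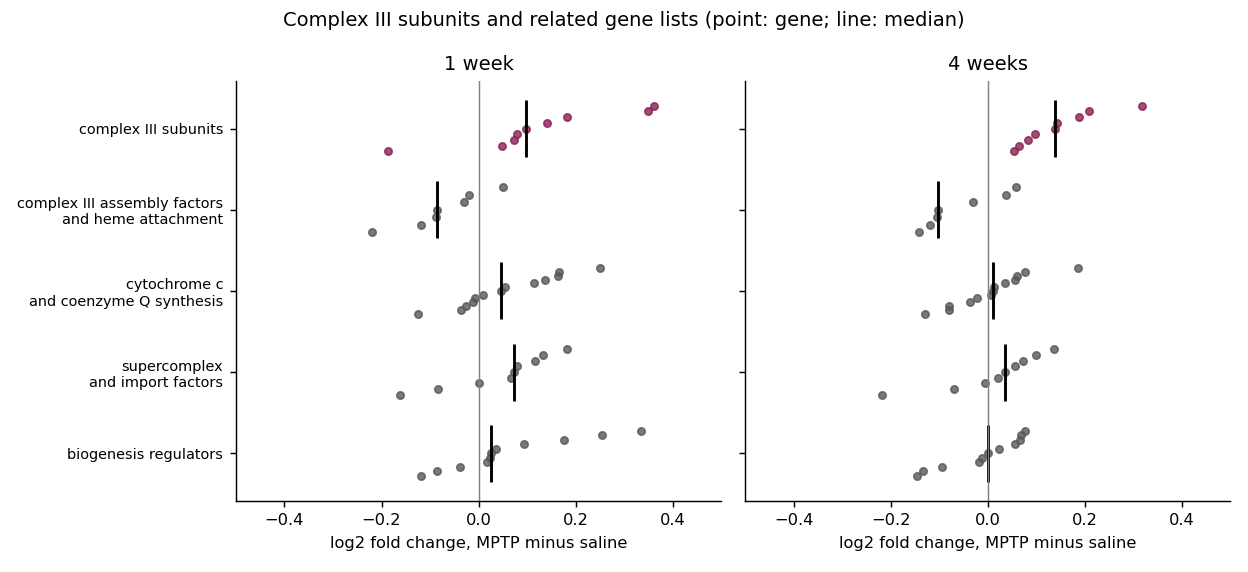
Log2 fold change of MPTP against saline (horizontal axis) at 1 week (left) and 4 weeks (right) for the complex III subunits (9 genes), assembly factors (7), cytochrome c and coenzyme Q synthesis (13), supercomplex and import factors (9) and biogenesis regulators (11); points are genes and black lines are medians. The subunits' medians are 0.10 and 0.14 and those of the assembly factors -0.09 and -0.10. Without Uqcrh and Uqcrb, which were chosen for values above 0, the subunits' medians are 0.08 and 0.10.

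Promoter sequences (RefSeq, GRCm38.p6, from 250 bases before to 50 after the start of the gene) were matched for 5 of the 9 subunits, Uqcrh, Uqcrc1, Uqcrfs1, Uqcr10 and Uqcr11. They were searched on both strands for 5 motifs known from genes of the respiratory chain or from core promoters, which were the NRF1 core GCGCATG, the ETS core CCGGAAG of GABPA, the SP1 box GGGCGG, the YY1 core ATGGCGG and the TATA box TATAAA. The NRF1 core was in 2 of 5 (3.91% of 32851 promoters in the table) and the ETS core in 2 of 5 (8.86%). No match to the SP1, YY1 or TATA letters was found in these 5 windows (35.7%, 4.05% and 13.6% of all promoters). Shown are Uqcrh and Uqcrc1, the subunits whose MPTP arrays lay above all saline arrays, and Uqcr11, whose brighter probe set did not follow the others. Matches are in capitals, positions count from the start of the gene, and sequences run 5′ to 3′ on the strand of the gene, which is minus for Uqcrh (chr4:116075071-116075170) and Uqcr11 (chr10:80406818-80406921) and plus for Uqcrc1 (chr9:108936669-108936692).
Uqcrh: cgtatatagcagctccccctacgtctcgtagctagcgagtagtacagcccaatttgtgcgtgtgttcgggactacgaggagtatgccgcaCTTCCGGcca
Uqcr11: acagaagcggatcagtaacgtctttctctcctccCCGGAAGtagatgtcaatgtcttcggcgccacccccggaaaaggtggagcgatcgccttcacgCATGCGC
Uqcrc1: ctccgctctGCGCATGCGCagcgc

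In Uqcrh the ETS core lies on the opposite strand from position -10. Uqcr11 holds it from -66, and an NRF1 core on the opposite strand from -3. The stretch of Uqcrc1 lies from 22 to 45 after the start and holds 2 overlapping NRF1 cores, 1 on each strand, from positions 31 and 34. Both Uqcrh and Uqcr11 hold the same ETS letters, and a match does not show that a factor binds there.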

How the data were processed

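Per the submitters' processing notes, the authors used RMA in Affymetrix Expression Console to make the deposited log2 values, starting from 100 ng of total RNA per sample labelled after SPIA amplification, per the labels' protocols. No software version or array batch is stated there. The deposited arrays did not share 1 distribution, with an interquartile range over probe sets from 1.84 to 2.08, and were used as deposited. Of 28944 probe sets, 21789 name 1 gene by the platform annotation (1621 name several and 5534 none, and both were left out). The probe set with the highest mean was kept per gene, giving 19938 genes, with no filter on dim signal.

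Each gene was fitted with limma 3.58.1 in R 4.3.3 (two-sided, Benjamini-Hochberg over all genes, threshold 0.05), as group means across the 8 arrays (4 residual degrees of freedom), or time plus treatment for the comparison over both times (5). The ± after a difference is the standard error of that fit. The members and lists were chosen with earlier results of these data known. The text names all 9 subunits, and from each related list up to 3 genes with the smallest unadjusted p in a comparison. The 5 genes most like Uqcrh and Uqcrb were found by Pearson correlation, passing over predicted-model names. Of 45 related genes listed, 40 were measured and the other 5, mt-Cytb among them, were not analysed here. Older symbols were updated through RefSeq (21698 of 21789 probe sets matched). Code was tested on simulated data. Plots were made in matplotlib 3.10.9 under Python 3.11.15.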

Additional observations from a re-analysis of the deposited data

How the results depend on the processing

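The alternatives were quantile normalization, median centring, genes above percentile 50, averaging all probe sets per gene, a trended and robust eBayes, fitting the compared groups alone, a block for the array number and each array left out. The fit of the compared groups alone gave no separate value over both times and for the difference of effects, which use all groups. Cyclic loess, leaving out the 2 arrays that stand apart, exchanged numbers and the other probe sets were added after seeing the data. The MPTP values of Uqcrh, Uqcrb, Uqcrc1, Uqcrfs1, Uqcr10 and Cyc1 stayed above 0 under every alternative run at 1 week, at 4 weeks and over both times. For Uqcrh and Uqcrb this follows in part from their choice. Where groups did not overlap within a time, leaving out 1 array could not change the sign there. The block, the signal filter, the trended and robust eBayes and the fit of compared groups alone did not alter these fold changes. Leaving out an array of a group outside a comparison of 2 groups did not alter its fold changes either. Of 815 values of single subunits under alternatives, 24 changed sign, but many of the 815 could not differ from the value reported. An adjusted p was computed for 689 of them, leaving out the MPTP values of Uqcrh and Uqcrb, and none of these 689 passed.

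The replicate block changed no call (0 genes in all 6 comparisons, for example with 713 genes at an unadjusted p under 0.05 at 1 week against 842). Arrays with the same number did not deviate together (r between -0.38 and 0.21 over 6 pairs of groups), so the number is no evidence of pairing. With the numbers of MPTP at 1 week exchanged, 0 genes passed there too. Across the alternatives, the genes at an unadjusted p under 0.05 ranged from 477 to 1876 at 1 week, 195 to 942 at 4 weeks, 597 to 1604 over both times, 127 to 1445 for the difference of effects, 198 to 1688 for time in saline and 1110 to 3141 for time in MPTP. The only call was Rny1, a small Y RNA, in MPTP with time, 1 gene without MPTP 1 week array 1 and 1 gene without the 2 arrays that stand apart (0 to 1 with each array left out). It was named after its values were seen.

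The medians below include Uqcrh and Uqcrb, so those of the MPTP effects follow in part from the choice of these 2 genes. The median of the 9 subunits at 1 week was 0.10, 0.14 without the 2 arrays that stand apart and 0.082 to 0.15 with each array left out. At 4 weeks it was 0.14, 0.10 with the mean of the probe sets and 0.072 (without saline 4 weeks array 2) to 0.14 with each array left out. For the difference of effects it was -0.02, but 0.018 after quantile and 0.018 after cyclic loess normalization, 0.048 without the 2 arrays and -0.060 to 0.024 with each array left out. For time in saline it was -0.11, -0.076 after quantile, -0.074 after cyclic loess, -0.17 without the 2 arrays and -0.17 to -0.041 with each array left out. For time in MPTP it was -0.09, 0.017 after quantile, 0.0019 after cyclic loess, -0.13 after centring and -0.11 to -0.056 with each array left out.

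The single values below changed sign under an alternative. Uqcrc2 at 1 week was -0.0016 without the 2 arrays. For time in saline, Uqcrc1 was 0.027 after quantile, 0.021 after cyclic loess and 0.0011 without the 2 arrays (-0.010 to 0.0052 with each array left out), against -0.0026 as reported. For time in MPTP, after quantile normalization Uqcrc1 was 0.044, Uqcrc2 0.017 and Uqcrfs1 0.019, and after cyclic loess 0.040, 0.0019 and 0.0080. Cyc1 was -0.040 after centring and -0.0051 without the 2 arrays (-0.054 to 0.059 with each array left out), and Uqcr11 -0.094 with its other probe set against 0.25 as reported. With each array left out, Uqcr11 was -0.086 to 0.065 over both times and -0.19 to 0.037 for time in saline, Uqcrq -0.057 to 0.15 at 1 week and -0.20 to 0.015 for time in MPTP, and Uqcrc1 -0.043 to 0.0081 for time in MPTP. The cause of these shifts was not tested. With 2 arrays per group, a group left with 1 array is assumed to vary like the others.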

Other observations

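The genes around complex III were also read for the change from 1 to 4 weeks. In MPTP retinas Tfb2m, a mitochondrial transcription factor, was 8.10 and 8.12 at 1 week and 7.70 and 7.79 at 4 weeks, a difference of -0.36 ± 0.09 (unadjusted p = 0.0023, adjusted p = 0.507 by limma), and in saline it was 8.04 and 8.12 and then 7.94 and 7.84 (-0.19 ± 0.09). Uqcc3, an assembly factor, stood at -0.26 ± 0.11 in MPTP, and Uqcc2 and Hccs, which attaches heme to cytochromes c and c1, stood at -0.22 ± 0.08 and -0.22 ± 0.09 in saline. Of the assembly list 6 of 7 genes were below 0 with time in saline and 5 of 7 in MPTP, with medians of -0.13 and -0.13. Bright genes as a whole had medians of -0.04 and -0.08 there.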
